A study of Mus musculus with 8 samples.

Results

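Peaks called around the Dlx1/Dlx2 and Dlx5/Dlx6 gene pairs were examined in OTX2 chromatin immunoprecipitation followed by sequencing (ChIP-seq) of the embryonic mouse subpallium. Members were all called peaks with a centre in chr2:71070000-71690000, where Dlx1 and Dlx2 lie near 71.37 to 71.39 Mb, or in chr6:6500000-7140000, where Dlx6 and Dlx5 lie near 6.81 to 6.83 Mb (mm9). These windows, 0.62 and 0.64 Mb long, held 43 of the 26317 peaks in the 8 lists of the series: 36 in the Dlx1/Dlx2 window and 7 in the Dlx5/Dlx6 window. Chromatin came from the basal ganglia and septum of wildtype CD-1 embryos at E12.5, with tissue of several embryos pooled in each sample. There were 3 libraries made with an antibody against OTX2, 3 of input chromatin with no antibody and 2 made with normal goat IgG. All groups shared strain, genotype, stage and tissue. The lists hold no expression values, so the tissue could not be checked against marker genes.

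DLX proteins are homeodomain transcription factors of the ganglionic eminences, where they promote the differentiation and migration of GABAergic neurons. The genes lie as convergently transcribed pairs that share enhancers between and around them, and Dlx1 and Dlx2 act earlier in progenitors than Dlx5 and Dlx6, which they activate. OTX2 is a homeodomain factor of the bicoid class that patterns the anterior neural plate and, in the ventral forebrain, takes part in regional patterning. In the gene order of GRCm38, Dlx1 and Dlx2 lie between Metap1d, a mitochondrial methionine aminopeptidase gene, and Itga6, an integrin subunit gene. Dlx6 and Dlx5 lie between Sem1, which encodes a proteasome subunit, and Sdhaf3, which encodes an assembly factor of succinate dehydrogenase.

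The sequence before a Dlx1 start and before the Dlx2 start is shown because peaks were called at this pair. These are 250 bases 5′ to 3′ on the gene's strand, from RefSeq on GRCm38.p6: chr2:71529195-71529444 (plus strand) for Dlx1 and chr2:71546755-71547004 (minus strand) for Dlx2. The reference table matched 2 of the 4 genes. Letters of the motifs searched would stand in capitals, and none was found.
Dlx1: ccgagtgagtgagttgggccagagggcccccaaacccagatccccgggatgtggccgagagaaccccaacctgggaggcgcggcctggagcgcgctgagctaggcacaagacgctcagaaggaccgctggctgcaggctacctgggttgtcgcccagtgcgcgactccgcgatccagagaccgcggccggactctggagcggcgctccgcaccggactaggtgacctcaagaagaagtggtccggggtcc
Dlx2: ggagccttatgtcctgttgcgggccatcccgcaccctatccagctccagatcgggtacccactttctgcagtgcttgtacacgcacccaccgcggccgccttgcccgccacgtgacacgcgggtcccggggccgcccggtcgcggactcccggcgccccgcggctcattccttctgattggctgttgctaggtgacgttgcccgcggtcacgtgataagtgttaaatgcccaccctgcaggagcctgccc
Neither stretch held TAATCC, the core that bicoid-class factors such as OTX2 bind, on either strand. Nor did they hold TAATTA, a core of other homeodomain proteins. Both motifs are rare in such windows: of 32851 promoter stretches of the same length, 6.25% held the first, which reads GGATTA on the other strand, and 4.84% held the second, which is its own reverse complement. The motif letters were searched in no peak, because no mm9 genome was used here. Guanine and cytosine made up 68% of the Dlx1 and 66.4% of the Dlx2 stretch, against a median of 52.4% (interquartile range 45.2 to 61.2%) over all promoters. Whether a peak covers these bases was not determined, because peaks are in mm9 and the sequences in GRCm38.

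The Dlx1/Dlx2 window held many OTX2 peaks and no control peak, whereas the Dlx5/Dlx6 window held few. In the Dlx1/Dlx2 window, 3 peaks were called in OTX2 replicate 1, 4 in replicate 2 and 29 in replicate 3. Each of the 3 input and 2 IgG libraries had 0 there. In the Dlx5/Dlx6 window, 0, 1 and 5 peaks were called in OTX2 replicates 1, 2 and 3. The 3 input libraries and IgG replicate 1 had 0 there, and IgG replicate 2 had 1. The OTX2 counts did not overlap the control counts in the first window, and did in the second. Every OTX2 library likewise exceeded every control library in 14.5% of 4243 genome tiles of the first window's length. The control lists are short, and 88.8% of those tiles held no control peak.

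The mean number of OTX2 peaks over both windows was 14 ± 17.3 (SD, n = 3), against 0 in input (exact two-sided permutation test, p = 0.10, adjusted 0.20). It was 12 ± 14.7 (SD, n = 3) in the Dlx1/Dlx2 window (exact two-sided permutation test, p = 0.10, adjusted 0.20) and 2 ± 2.65 (SD, n = 3) in the Dlx5/Dlx6 window (p = 0.40, adjusted 0.40). With 3 against 3 libraries, 0.10 is the smallest p that can be reached, so no difference could pass 0.05. These tests did not pair libraries of the same experiment. With that pairing, the exact sign-flip permutation test gave p = 0.25 over both windows, 0.25 at Dlx1/Dlx2 and 0.5 at Dlx5/Dlx6. The Dlx1/Dlx2 window exceeded the Dlx5/Dlx6 window in 3 of 3 OTX2 libraries, by 10 peaks on average (exact two-sided sign-flip permutation test, n = 3, p = 0.25, the smallest possible, adjusted 0.33). Replicate 3 set the size of these differences. Without it, the mean difference from input was 4 peaks over both windows, 3.5 at Dlx1/Dlx2 and 0.5 at Dlx5/Dlx6, and the Dlx1/Dlx2 window held 3 peaks more than the other on average.

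**Figure D1:**
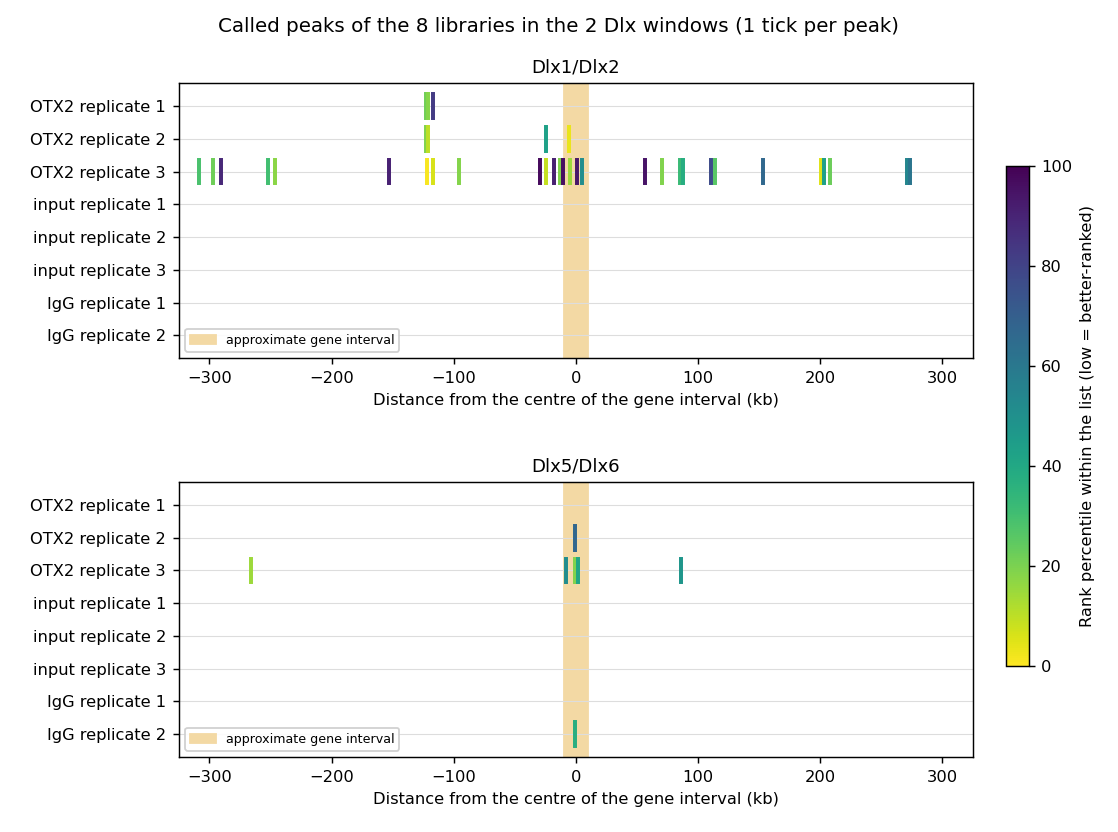
Position of every called peak in the Dlx1/Dlx2 (top) and Dlx5/Dlx6 (bottom) windows, with 1 row per library, 1 tick per peak, and distance in kb from the centre of the approximate gene interval (shaded). Tick colour gives the rank percentile within the library's own list. OTX2 replicate 3 fills the Dlx1/Dlx2 window with 29 ticks, the 3 input rows are empty in both windows, and the only control tick is that of IgG replicate 2 at Dlx5/Dlx6.

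OTX2 replicate 3 stood apart from the other libraries over the whole genome. Its list held 22325 peaks with a median width of 827 bp, against 1848 and 1298 peaks with median widths of 191 and 182 bp in replicates 1 and 2. The input and IgG lists held 138 to 235 peaks. Read depth is unknown for all libraries, and the track names of OTX2 and input replicate 3 bear an added tag with the word score, so their calling settings may have differed. Peak numbers were therefore set against each library's own list. Whether the replicates came from separate litters is not stated, so p-values measure the spread between these libraries, which may be technical.

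Peak density in the Dlx1/Dlx2 window was above that of the library's own list in each OTX2 library. The density was 4.84 peaks per Mb in replicate 1, 6.71 times that of the whole list (exact Poisson 95% interval 1.38 to 19.6). It was 6.45 per Mb in replicate 2, a ratio of 12.7 (3.47 to 32.6), and 46.8 per Mb in replicate 3, a ratio of 5.37 (3.6 to 7.71). The intervals cover counting error only and treat peaks as independent. Those of the 3 libraries overlapped one another, and all lay above 1. Peaks were clumped over the genome, with a replicate 1 mean of 0.431 and maximum of 31 per 0.62 Mb tile, so these intervals are too narrow. The 3 replicate 1 peaks of the window all lay between 71256859 and 71263001. The replicate 1 interval, from 3 peaks, included 1 when set against its own chromosome (ratio 4.52, 0.932 to 13.2) and in a window of 2 times the length (3.36, 0.692 to 9.81). With the lists cut to 1298 peaks, 2 peaks each were left in replicates 1 and 3, and their intervals included 1 (ratio 6.37 in each, lower limits 0.772 and 0.771). In the Dlx5/Dlx6 window the ratio was 3.08 (0.0781 to 17.2) in replicate 2 and 0.897 (0.291 to 2.09) in replicate 3, both with intervals that include 1. Replicate 1 had no peak there, and its nearest peak to the genes lay 0.69 Mb away.

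The same contrast appeared when the genome was divided into consecutive tiles of the window's length. Of 4243 tiles of 0.62 Mb, 7 (0.165%) held at least the 29 replicate 3 peaks of the Dlx1/Dlx2 window, with a median of 4 and a maximum of 37 per tile. At least 3 replicate 1 peaks were found in 3.44% of the tiles, and at least 4 replicate 2 peaks in 0.778%. For Dlx5/Dlx6 the values were ordinary: 48.8% of 4112 tiles of 0.64 Mb held at least 5 replicate 3 peaks and 21.4% held at least 1 replicate 2 peak. Tiles without any replicate 3 peak numbered 721 at the first length. Among the other 3522, the share with at least 29 was 0.199%. Of the tiles with any peak of the library in question, 12.4% held at least 3 of replicate 1 and 3.74% at least 4 of replicate 2.

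**Figure D2:**
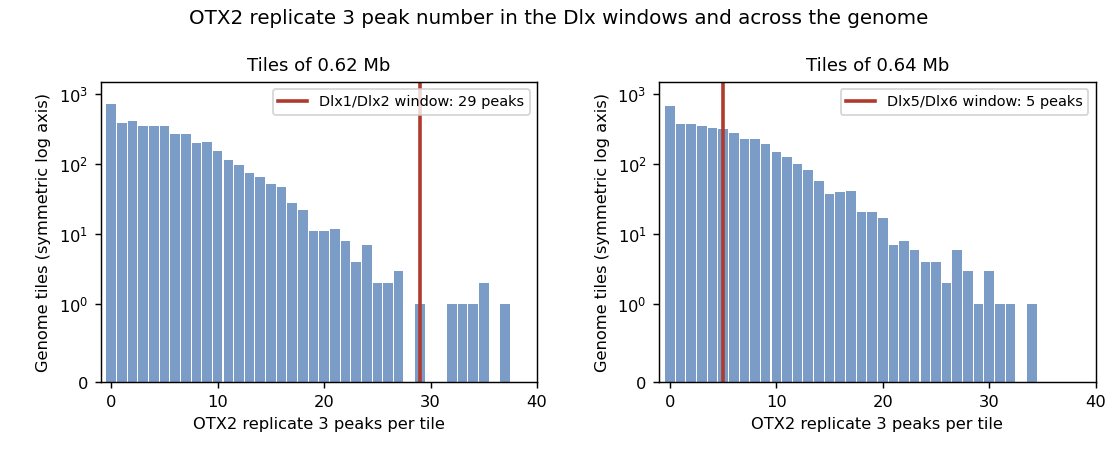
Number of genome tiles (vertical, symmetric log axis) by the number of OTX2 replicate 3 peaks they hold (horizontal), for tiles as long as the Dlx1/Dlx2 (left) and Dlx5/Dlx6 (right) windows. The red line marks the window itself, at 29 peaks in the sparse right tail for Dlx1/Dlx2 and at 5 peaks in the bulk for Dlx5/Dlx6.

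Merging overlapping OTX2 peaks gave 29 intervals in the Dlx1/Dlx2 window. Of these, 4 were found in at least 2 OTX2 libraries and were free of control peaks, and are called OTX2 regions below. This is 13.8% of the intervals (exact Clopper-Pearson 95% interval 3.89 to 31.7%), and 8.61% of the 22629 merged intervals of the genome met the same rule, a background that the interval includes. The Clopper-Pearson limits treat the merged intervals as independent, although they cluster at 1 locus, and do not cover the spread between libraries. At least 4 regions were found in 1.65% of all tiles and in 5.72% of those with any region. Only 1 of the 4 was found in all 3 libraries. It made up 3.45% of the window's 29 intervals, near the 3.49% of intervals over the genome that met this stricter rule. Of the 1949 regions of the genome, 789 were found in all 3 libraries. Of the 4 reported regions, 3 still held one without replicate 1, 2 without replicate 2, and 1 without replicate 3. All 4 lay over the gene interval or below it, and none above 71.39 Mb.

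The region found in all 3 libraries lay about 110 kb below the Dlx1/Dlx2 interval, at chr2:71256424-71259917. Replicate 1 had a pair of peaks in it, at 71256859 to 71257474 (rank 403) and 71258773 to 71259081 (rank 332), separated by 1.3 kb. Replicate 2 had a matching pair, at 71256837 to 71257172 (rank 245) and 71258800 to 71259134 (rank 128). Replicate 3 had 1 peak of 3494 bp over both, at rank 216. The best rank was in the first 18% of the replicate 1 list, the first 9.86% of replicate 2 and the first 0.968% of replicate 3. By mean rank percentile the region came 167th of the 789 regions found in all 3 libraries. This was the place in either window where the libraries overlapped most fully.

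A second region followed after a gap of 2.52 kb, at chr2:71262433-71263513. It held a replicate 1 peak of 172 bp at rank 1524 of 1848 and a replicate 3 peak at rank 1360 of 22325. Replicate 2 had no peak there.

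At the Dlx1/Dlx2 pair itself, peaks were called in replicates 2 and 3 and none in replicate 1. The region at chr2:71373410-71376733, inside the gene interval, held a replicate 2 peak of 473 bp (71373994 to 71374466) at rank 41 of 1298. It was the best-ranked replicate 2 peak of both windows. The replicate 3 peak over it was 3324 bp wide and ranked 3384 of 22325. No replicate 1 peak lay closer to the interval than about 110 kb. Ranks of this region thus differed widely between the libraries.

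Such a difference was unusual for so well-ranked a replicate 2 peak. Of the 41 best-ranked replicate 2 peaks, 1 (2.44%) had no overlapping replicate 1 peak, and it was this one. The other 40 had replicate 1 ranks from 1 to 949 (median 26.5). Their replicate 3 ranks ran from 1 to 182 (median 26.5), whereas the peak at Dlx1/Dlx2 had rank 3384. The cut at 41 was set by the rank of the peak at Dlx1/Dlx2, so every peak compared with it ranked better. At longer cuts, 1.56% of the best-ranked 128 replicate 2 peaks, 4.9% of 245 and 13.7% of 561 had no replicate 1 peak. This comparison was chosen after the values were seen, and the cause of the difference was not tested.

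The fourth region lay about 10 kb below the interval, at chr2:71353896-71357353. It held a replicate 2 peak of 170 bp (71355891 to 71356060) at rank 561 and a replicate 3 peak of 3458 bp at rank 1973. Replicate 1 again had no peak there. Both regions at the pair were therefore seen in replicates 2 and 3, and both regions about 110 kb below it in replicates 1 and 3, 1 of them also in replicate 2.

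**Figure D3:**
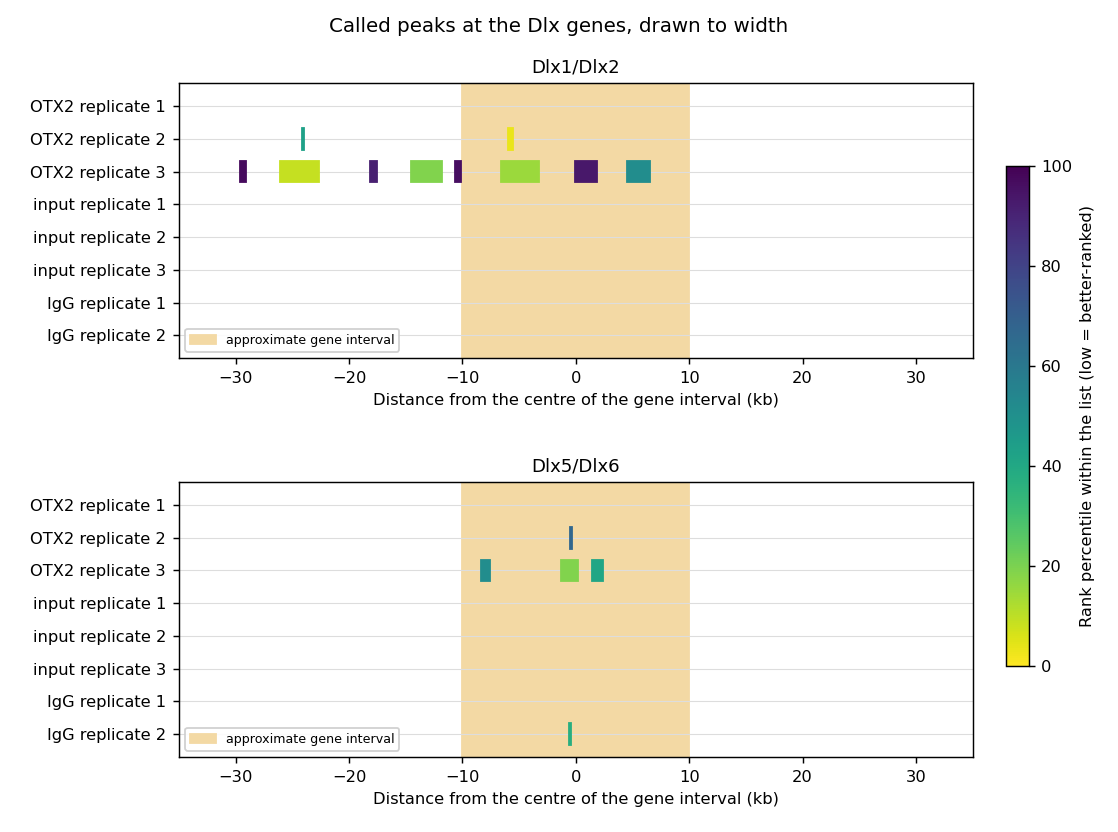
Peaks within 35 kb of the centre of each gene interval, drawn to their width in kb, with 1 row per library and the approximate gene interval shaded. Colour gives the rank percentile within the list. At Dlx1/Dlx2 (top) replicate 3 has 8 peaks and replicate 2 has 2, and at Dlx5/Dlx6 (bottom) the peaks of OTX2 replicate 2 and IgG replicate 2 lie over one another.

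The other 25 replicate 3 peaks of the Dlx1/Dlx2 window were found in that library alone. Their ranks ran from 1116 to 21712 with a median of 9722, and their widths from 402 to 2747 bp with a median of 885 bp. The 4 shared peaks had ranks from 216 to 3384 and widths from 1081 to 3494 bp. The best-ranked unshared peak lay about 190 kb above the genes, at chr2:71580195-71581421 (rank 1116). The next were at 71133405 to 71134346 (rank 3847), 71283321 to 71284755 (rank 4184) and 71365457 to 71368203 (rank 4241). Of the 29 replicate 3 peaks, 11 were in the best-ranked 25% of the list, 6 in the next 25%, 4 in the third and 8 in the last. The window was therefore filled by peaks from the whole range of ranks.

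Replicate 3 peaks lay on both sides of the pair, with 12 below, 12 above and 5 over the interval or within 5 kb of it. The median gap between neighbours was 4.75 kb, against 46.7 kb over the genome, and 15 of 28 gaps (53.6%) were under 10 kb, against 17.3% of 22302 gaps over the genome. Within 25 kb of the interval, 8 peaks between 71350400 and 71386535 covered 42% of the 36.1 kb that they span. In the Dlx5/Dlx6 window 2 of 4 gaps were under 10 kb, with a median of 44.7 kb. The 3 peaks at the genes there covered 30.4% of the 10.7 kb that they span. Both stretches begin and end at a peak, which raises these shares. Over the whole Dlx1/Dlx2 and Dlx5/Dlx6 windows, replicate 3 peaks covered 6.17% and 0.886%.

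Peaks at Dlx1/Dlx2 in replicate 3 were also wide for their rank. Each peak was set against those within 500 ranks of it. Of the 8 peaks within 25 kb of the gene interval, 5 were among the widest 5% at their rank, as were 3 of the 21 peaks farther away and 0 of the 5 in the Dlx5/Dlx6 window. The peak at 71379959 to 71381866 was 1908 bp wide at rank 20857, where the median was 589 bp and 0.2% of peaks were as wide. Over the interval, the peak at 71384485 to 71386535 was 2051 bp wide at rank 11429, where 2.4% were as wide. At the shared region at 71373410 the value was 1.7%, and at 71353896 it was 2.3%. The fifth, at 71365457 to 71368203, was 2747 bp wide, and 3.4% were as wide. The remaining 3 of the 8 peaks, among them 1 at 71369324 to 71369839 beside the interval, were 516 to 635 bp wide with ranks from 20397 to 21712, and 32.8 to 77.6% of peaks at their rank were as wide. Width was compared in this way after the values were seen, and no test was made of it.

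The Dlx5/Dlx6 window held no OTX2 region. Its only interval with peaks of more than 1 OTX2 library lay in the gene interval at chr6:6818730-6820224, and it also held an IgG peak. The replicate 2 peak there (6819466 to 6819639) was 174 bp wide at rank 871 of 1298, and the replicate 3 peak was 1495 bp wide at rank 4221 of 22325. The IgG replicate 2 peak (6819447 to 6819621) was 175 bp wide at rank 68 of 182 and shared 156 bp with the OTX2 replicate 2 peak. The 3 input libraries, IgG replicate 1 and OTX2 replicate 1 had no peak at this place.

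Overlap with control peaks was uncommon among replicate 2 peaks, of which 4.85% were overlapped by an input or IgG peak. Of the 182 IgG replicate 2 peaks, 34.1% were overlapped by an OTX2 peak and 37.4% by a peak of another control list. The one at Dlx5/Dlx6 belonged to the former and not to the latter. In the second experiment a peak was thus called at this site with the antibody against OTX2 and with IgG, but not in input. The lists hold no read counts, so the strength of signal could not be compared there.

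The other 4 replicate 3 peaks of the Dlx5/Dlx6 window were found in that library alone and were free of control peaks. Over the genome, only 55 of the 20640 merged intervals found in 1 OTX2 library held a control peak. Replicate 3 had no IgG library. A pair of them lay in the gene interval, at 6811617 to 6812476 (860 bp, rank 11469) and 6821446 to 6822358 (913 bp, rank 9116). The best-ranked of the window lay about 260 kb below the genes, at 6553347 to 6554820 (rank 3231), and the last about 80 kb above them, at 6905410 to 6906337 (rank 10595). Of the 5 peaks of replicate 3, 3 therefore lay over the gene interval, among them the one that overlapped the IgG peak. Their number in the window was ordinary for the genome. No genome share was computed for a stretch as short as the gene interval.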

How the data were processed

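The data were 8 peak lists, 1 per library, and their measured column is the authors' rank of each peak within its list, as deposited. No score, fold or read count accompanies it. BWA, MACS 1.4 and the build mm9 are named, without roles, in the submitters' processing notes. Neither the threshold nor the peak-calling control nor the ranked quantity is given in the sources used here.

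Coordinates are 1-based mm9. A peak belonged to a window by its centre. Gene positions are those of the rule for the windows, given to 10 kb, and peaks were not assigned to single genes. Peaks sharing at least 1 bp were merged. Tiles ran from the start of each chromosome to the highest position in any list, and densities used a genome extent of 2562 Mb. P-values of the 4 tests were adjusted by the Benjamini-Hochberg method. Named peaks were all those of replicates 1 and 2 and of the controls, and in replicate 3 all peaks of the Dlx5/Dlx6 window, and the 8 best-ranked of the Dlx1/Dlx2 window with those nearest to the genes. Python 3.11.15, numpy 2.4.6 and scipy 1.17.1 were used, and the overlap code was tested on simulated data. The windows, lists and comparisons were chosen with earlier results of these data known. Alternatives were other window lengths, overlap rules and list lengths, other controls, a replicate block, and each replicate left out.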

Additional observations from a re-analysis of the deposited data

How the results depend on the processing

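Directions of the differences in peak number from input and between the windows were kept in every alternative run, and no adjusted p passed 0.05. Input had no peak in either window, and its nearest peaks lay 1.15 Mb or more from the genes. The difference from input could therefore not turn negative, and its kept direction says nothing of stability. Comparisons of 3 against 3 libraries or fewer, and of 3 pairs, could not reach that threshold, so they say nothing of stability. With input and IgG together as control (3 against 5 libraries), the difference over both windows was 13.8 peaks (exact permutation test, p = 0.0179, the smallest this design allows). Its unadjusted p was thus below 0.05, and adjusted with the 3 other tests, which kept their own design, it was 0.0714. Such full separation from every control library was also found in 14.5% of genome tiles of the Dlx1/Dlx2 window's length. The test covered both windows, and the share for their joint length was not computed. Input and IgG of the same experiment were counted here as separate controls. With the replicate block, by which libraries of the same experiment were paired, the difference of 14 peaks over both windows had p = 0.25 (exact sign-flip permutation test, n = 3), and the block changed no call. The replicate numbers follow the experiments, each with its own input.

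The number of OTX2 regions, 4 as reported, was 1 when all 3 libraries were required, 33 when any 1 sufficed, and 1 with each OTX2 list cut to its best-ranked 1298 peaks. It was between 2 and 3 when a replicate was left out: 3 without replicate 1, and 2 without replicate 2 or without replicate 3. The 2 without replicate 3 are the peak pairs of 1 reported region, no longer joined by its wide peak, so 1 of the 4 places was left. With control peaks ignored it was 5, the added one being at Dlx5/Dlx6. The lists of 1298 peaks, an alternative chosen after seeing the data, left 2, 4 and 2 peaks of replicates 1, 2 and 3 in the Dlx1/Dlx2 window, with a density ratio of 6.37 in replicate 3, and 0, 1 and 0 in the Dlx5/Dlx6 window, where the ratio in replicate 3 was 0. In a window of 2 times the length the Dlx1/Dlx2 ratio in replicate 3 was 3.33. The median rank percentile over both windows was 21.8, 18.9 and 34.8 in replicates 1, 2 and 3. The means were 40.7, 28.4 and 43.8, and the best-ranked peaks had 18, 3.16 and 0.968. Read depth is unknown, so a peak missing from a list may lie below that list's threshold.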

Other observations

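The density of replicate 3 peaks around Dlx1/Dlx2 was lower in longer windows. In the inner part of the window, of 0.5 times its length, the replicate 3 density ratio was 7.03, in the whole window 5.37, and in a window of 2 times the length 3.33. For Dlx5/Dlx6 the replicate 3 ratios at the same lengths were 1.43, 0.897 and 0.897, all with intervals that include 1.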
